A study of Mus musculus with 13 samples.

Results

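The genes described here encode the enzymes and regulators of cholesterol and fatty acid synthesis, and 30 of them were chosen by name: 18 enzymes of the sterol path, 6 regulators of that path and 6 enzymes of fatty acid synthesis. Each had to match a gene of the deposited table exactly and average at least 0.5 RPKM (a read count corrected for gene length and sequencing depth) over all libraries. All 30 did, out of 20971 genes in the table and 13343 that passed the same limit and were tested. Their expression was compared in cortex of C57BL/6 mice aged 6 months, 6 APPPS1 and 7 APPPS1;Apoe-/-. APPPS1 mice carry human transgenes for mutant amyloid precursor protein and presenilin 1 driven by the neuronal Thy1 promoter of the mouse, and deposit amyloid in the cortex. By the labels both groups carry these transgenes and differ in the gene for apolipoprotein E, deleted in the second group; 2 libraries of the second group have App and Thy1 levels that go against this, as given with the checks of the libraries. No group labelled as lacking the transgenes is compared, so the values set cortex without Apoe beside cortex with it, in mice labelled as carrying the transgenes. The series' design counts mice, but nothing in the labels says how litters were distributed, and the sex of the animals is not given in the sources used here.

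Cholesterol does not pass from blood into brain, so the brain makes its own, in adults largely in glia, and apolipoprotein E is the main carrier that moves it between cells. Synthesis starts from acetyl-CoA, runs through mevalonate and isoprenoid units to squalene, and ends with the removal of methyl groups and the shifting of double bonds in the sterol rings. When sterol in the endoplasmic reticulum is low, Scap escorts the SREBP proteins (products of Srebf1 and Srebf2) to the Golgi, where they are cut to active transcription factors; when it is high, the Insig proteins hold Scap back. Fatty acids are built from the same acetyl-CoA by Acly, Acaca and Fasn, and are then lengthened and desaturated.

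The path as a whole differed little between the genotypes. By limma with Benjamini-Hochberg adjustment over all genes tested, 2 of the 30 genes were lower in APPPS1;Apoe-/- cortex, Fasn and Insig1, and 0 were higher. This is 6.67% of the members, against 8.23% of all genes tested called in either direction (4.74% lower, 3.48% higher), so the share of called members was near that of the transcriptome at large. At an unadjusted p under 0.05 there were 9 members, all lower, or 30% of them, beside 25.0% of all genes tested in either direction and 13.4% lower. Without APPPS1;Apoe-/- replicates 2 and 5, described further on, there were 7, of which 6 were lower, beside 21.3% of all genes tested in either direction. Of the 30 changes 21 were below 0 (70%, against 52.3% of all genes tested), and their median was -0.07 on the log2(RPKM + 0.5) scale, beside -0.01 for all genes tested. They ran from -0.31 for Fdps to 0.19 for Dhcr7. All changes are APPPS1;Apoe-/- minus APPPS1 on this scale, which understates the change of weakly expressed genes.

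Most of the uncalled changes were bounded to a modest size. For 28 of the 30 genes the 95% interval of the change lay within 0.5 of 0 on the log2 scale, Fdps and Dhcr7 being the exceptions. On RPKM, which is per length and so allows genes to be compared, the most abundant members were Scd2 (118, mean over 13 libraries), Hmgcs1 (98.5) and Msmo1 (74.3), and the least abundant Srebf1 (2.73), Scap (3.03) and Acaca (3.37). Tissue RNA cannot tell fewer cells of a type apart from less RNA per cell.

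**Figure D1:**
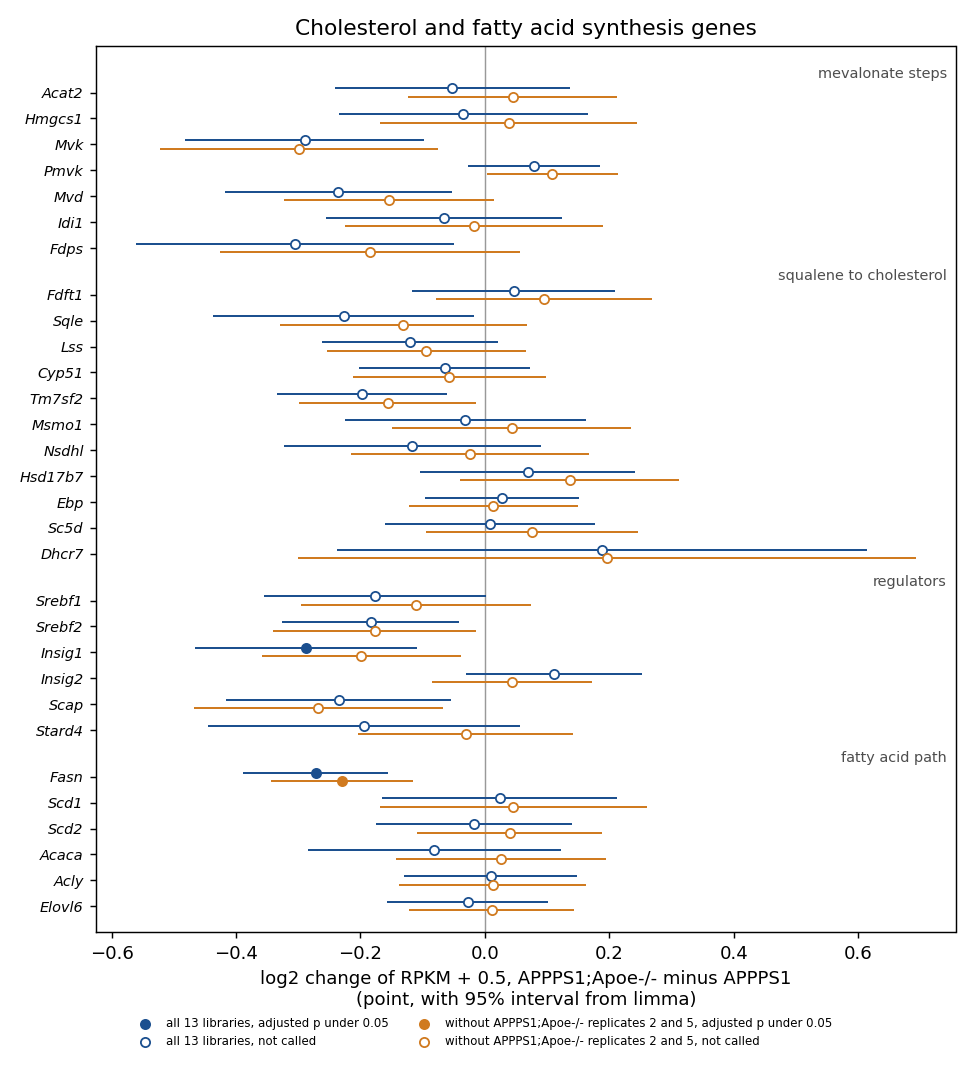
Change of each of the 30 genes, APPPS1;Apoe-/- minus APPPS1, on the log2(RPKM + 0.5) scale (horizontal axis), as points with 95% intervals, grouped by step of the path, with all 13 libraries (blue) and without APPPS1;Apoe-/- replicates 2 and 5 (orange). Filled points are called: Fasn and Insig1 with all libraries, Fasn without those replicates.

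The libraries matched their labels for Apoe, which lay at 463 to 670.4 RPKM in the APPPS1 group and at 4.01 to 6.35 RPKM in the APPPS1;Apoe-/- group (log2 change -6.61, limma adjusted p = 2.43e-16). APPPS1;Apoe-/- replicates 2 and 5 stood apart from the other 11 libraries in App (106 and 116 RPKM, others 176 to 217) and Thy1 (52.2 and 56.9, others 172 to 245), which goes against a label that gives them Thy1-driven transgenes. They are the libraries labelled APPPS1;Apoe-/- replicates 2 and 5 throughout, and whether they carry the transgenes was not tested. Calls are also given without them, as are member changes that move clearly or have an unadjusted limma p under 0.05 in that fit. Alignments per library were 28402328 to 77005806 in the APPPS1 group, the highest being replicate 3, and 18455493 to 34538031 in the other, the lowest being replicate 5. Of 10 microglial markers 6 were lower and 0 higher (summed RPKM 511 to 611 against 239 to 457), as were 10 of 10 genes that microglia induce at plaques (384 to 480 against 76.2 to 223). Over all genes tested 4.74% were called lower and 3.48% higher. Of 10 oligodendrocyte markers 4 were higher and 0 lower (878 to 1230 against 990 to 1566), and without replicates 2 and 5 of the second group 1 was higher (sum 990 to 1344). Astrocyte markers, 1 higher and 2 lower of 10, summed to 1273 to 1411 against 1335 to 1516. The 8 markers of cortical projection neurons were present in every library (1 lower, sum 109 to 129 against 103 to 121). However, 9 striatal genes were present too (1 called higher, sum 331 to 812 against 433 to 919). All 9 striatal changes were above 0 (median log2 change 0.45). Of these 8 had an unadjusted limma p under 0.05, beside 25.0% of all genes tested. With library depth (log2 of alignments) as a covariate 3 striatal genes were called higher. Without replicates 2 and 5 of the second group 5 microglial and 10 plaque-induced genes were lower. In that fit 0 astrocyte, 0 cortical projection neuron and 0 striatal genes were called by limma. At an unadjusted limma p under 0.05 there were 7 of 10, 2 of 8 and 3 of 9, beside 21.3% of all genes tested. No marker of these lists was at 0 in any library. The part of cell composition in the results was not tested.

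Fasn, the fatty acid synthase that builds palmitate, was the member that separated the genotypes most clearly. The APPPS1 libraries held 7.32, 8.19, 7.37, 7.59, 8.26 and 7.88 RPKM, and the APPPS1;Apoe-/- libraries 6.91, 6.22, 6.25, 6.67, 5.53, 6.69 and 6.23. All 7 libraries without Apoe lay below all 6 with it, the nearest pair being 6.91 and 7.32. Fasn was the 1 member whose groups did not overlap, which held for 3.72% of all genes tested (2.17% with APPPS1;Apoe-/- lower). The means were 7.77 ± 0.408 RPKM (SD, n = 6) and 6.36 ± 0.457 (SD, n = 7), a log2 change of -0.27 (SE 0.05, 95% interval -0.39 to -0.16, limma adjusted p = 0.00689). Without APPPS1;Apoe-/- replicates 2 and 5 the change was -0.23 (limma adjusted p = 0.023), with 5.07% of all genes called and 3.30% called lower. When library depth (log2 of its alignments) was added as a covariate the change was the same size, -0.27, but no longer passed (limma adjusted p = 0.0774). In that fit the SE was 0.07, and 1.51% of all genes and 0 members were called. Most APPPS1;Apoe-/- libraries had fewer alignments than the APPPS1 libraries. Fits with this covariate therefore cannot fully tell depth and genotype apart, here and for the genes below. Fasn lies on the minus strand of chromosome 11, chr11:120805846-120824547 of mm10.

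The other 5 fatty acid genes were not called, and none of their changes exceeded 0.10 on the log2 scale. Scd2, a stearoyl-CoA desaturase and the most abundant member, ranged from 112 to 122 RPKM in APPPS1 cortex (median 118) and from 96.1 to 146 without Apoe (median 116). The second group spread to both sides of the first, and the means were nearly equal, 118 ± 3.68 (SD, n = 6) and 117 ± 15.9 (SD, n = 7), with a log2 change of -0.02 (95% interval -0.18 to 0.14). Scd1, the related desaturase, averaged 20.9 ± 3.07 and 21.2 ± 2.40 RPKM (log2 change 0.02, interval -0.16 to 0.21). Acly, which splits citrate into the acetyl-CoA that feeds both paths, averaged 34.5 ± 1.68 and 34.9 ± 3.79 RPKM (0.01, interval -0.13 to 0.15). Acaca, the acetyl-CoA carboxylase that makes the malonyl-CoA used by Fasn, averaged 3.47 ± 0.360 and 3.28 ± 0.568 (-0.08, interval -0.29 to 0.12). Elovl6, the elongase acting on the product of Fasn, averaged 7.38 ± 0.489 and 7.23 ± 0.596 (-0.03, interval -0.16 to 0.10). The lower Fasn was thus measured beside neighbours of the same path whose intervals include 0. Reads of Scd1 and Scd2 can be shared with similar copies of the family, and how the authors assigned them is not given in the sources used here.

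Insig1, the endoplasmic reticulum protein that retains Scap and is itself a target of the SREBP proteins, was the other called gene. It lay at 34.1, 34.6, 29.9, 31.4, 29.5 and 32.5 RPKM in the APPPS1 libraries and at 33.5, 23.3, 27.3, 24.4, 21.3, 28.6 and 25.9 in those without Apoe. Replicate 1 of the APPPS1;Apoe-/- group was inside the APPPS1 range and the other 6 were below it. The means were 32.0 ± 2.14 RPKM (SD, n = 6) and 26.3 ± 4.0 (SD, n = 7), and the log2 change was -0.29 (SE 0.08, 95% interval -0.47 to -0.11, limma adjusted p = 0.0458). The call sat at the edge of the threshold: leaving out each library in turn kept it in 3 of 13 fits (limma adjusted p from 0.00931 to 0.1002). Without APPPS1;Apoe-/- replicates 2 and 5 the change was -0.20 (limma adjusted p = 0.144), and with the alignments covariate -0.25 (limma adjusted p = 0.250). Fasn, in contrast, was called in 13 of 13 such leave-one-out fits (limma adjusted p from 0.00630 to 0.0200). Insig1 lies on the plus strand, chr5:28071363-28078662 of mm10.

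**Figure D2:**
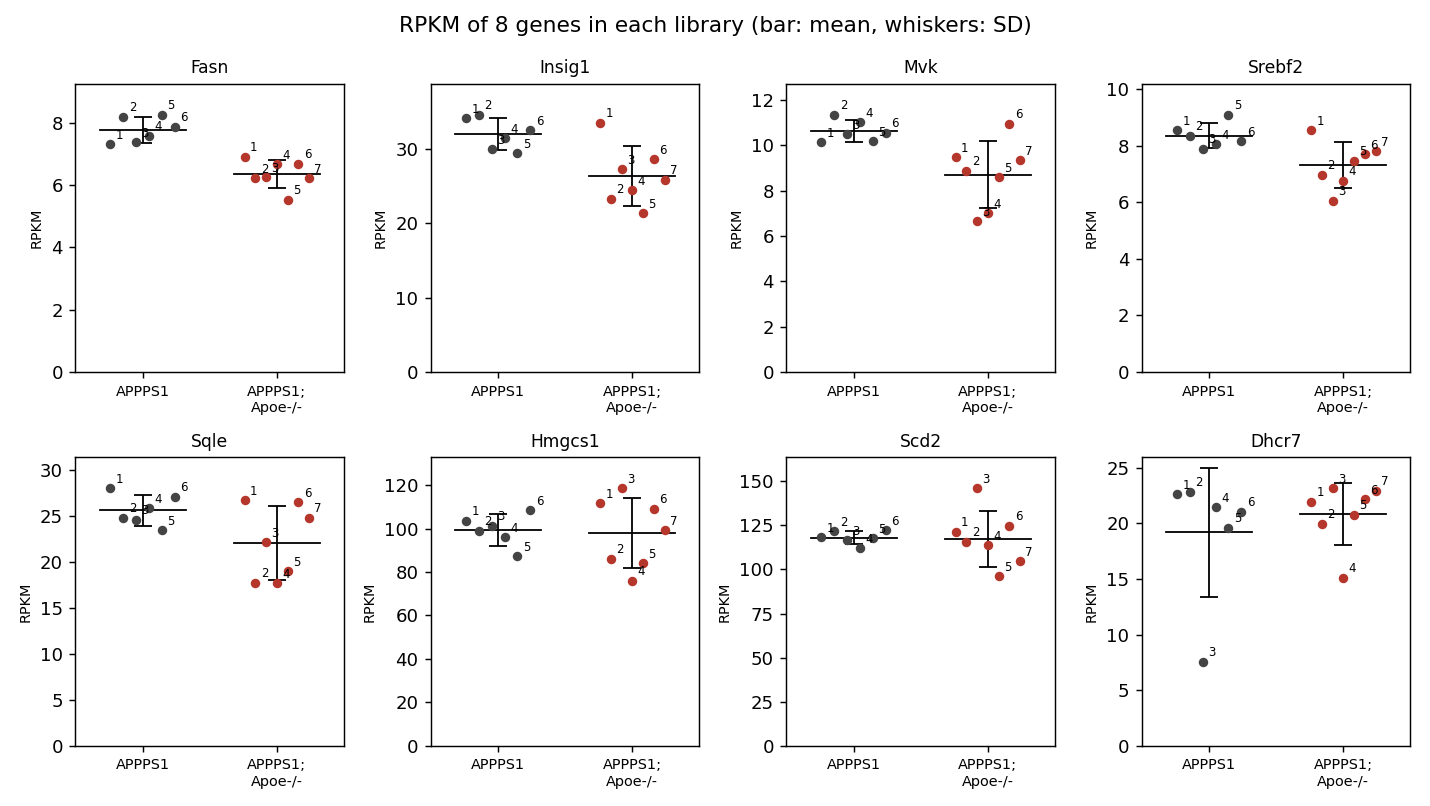
RPKM in each library (points) of 8 members, numbered by replicate, with the group mean (bar) and SD (whiskers), for 6 APPPS1 and 7 APPPS1;Apoe-/- libraries; the vertical axes start at 0. Fasn shows no overlap between the groups, Insig1 has 6 of 7 libraries below the APPPS1 range, and 1 APPPS1 library at 7.55 RPKM stands apart for Dhcr7.

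The promoters of both called genes are shown with that of Hmgcs1, a sterol path gene that was not called, to set beside their values the letters read by the factors of this path. The SREBP proteins bind sterol regulatory elements and act together with the CCAAT-binding factor NF-Y. The bases run 5′ to 3′ on the gene's strand towards the RefSeq start (RefSeq, GRCm38.p6), and capitals mark CCAAT on either strand (ATTGG on the other) and TCACNCCAC, a form of the sterol regulatory element.
Fasn, minus strand, chr11:120824548-120824797: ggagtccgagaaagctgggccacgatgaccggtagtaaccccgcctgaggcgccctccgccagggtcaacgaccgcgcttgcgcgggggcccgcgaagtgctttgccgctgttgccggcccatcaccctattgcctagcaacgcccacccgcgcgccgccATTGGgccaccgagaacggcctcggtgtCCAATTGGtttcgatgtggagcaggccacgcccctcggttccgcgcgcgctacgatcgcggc
Insig1, plus strand, chr5:28071162-28071362: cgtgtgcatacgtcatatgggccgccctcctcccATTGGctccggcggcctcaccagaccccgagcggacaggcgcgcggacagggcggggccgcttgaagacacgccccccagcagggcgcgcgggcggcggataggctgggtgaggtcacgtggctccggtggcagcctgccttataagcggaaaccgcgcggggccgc
Hmgcs1, plus strand, chr13:119690101-119690350: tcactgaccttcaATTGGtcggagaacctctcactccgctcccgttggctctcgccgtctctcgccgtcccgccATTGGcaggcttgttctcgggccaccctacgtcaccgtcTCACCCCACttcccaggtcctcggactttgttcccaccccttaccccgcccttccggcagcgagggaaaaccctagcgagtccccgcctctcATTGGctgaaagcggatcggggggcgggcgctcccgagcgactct

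The Fasn window held 3 CCAAT matches, ending 86, 58 and 55 bases before the start, and the last pair overlaps on opposite strands. Insig1 held 1, ending 212 bases before its RefSeq start; its last 49 bases before that start are left out because the gene annotation already counts them to the gene. Hmgcs1 held 3, ending 233, 172 and 41 bases before the start, with a TCACNCCAC match between them that ended 129 bases before it. Of the 30 members 24 had a promoter entry, and 19 of these (79.2%) had CCAAT on either strand within the 250 bases before the start. In the sterol path it was 14 of 15 (93.3%), beside 40.4% of the 10250 tested genes with an entry. TCACNCCAC was found in 1 of 24 members, Hmgcs1, and in 1.34% of those genes. A match is a run of letters and no measured binding site. Other forms of the sterol regulatory element were not searched, so a missing match does not show that the element is absent. Both called genes, Fasn and Insig1, had CCAAT. Of members not called, Hmgcs1, Sc5d, Msmo1 and Ebp had it and Acly and Elovl6 lacked it, all with changes within 0.04 of 0. The entries of Acat2, Scap and Acaca, not called either, also lacked it.

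Among the regulators Insig1 was the 1 called gene of 6, beside 8.23% of all genes tested called in either direction. At an unadjusted limma p under 0.05 there were 3 of 6, beside 25.0% of all genes tested. Of the 6 changes 5 were below 0, and the median was -0.19. Srebf2, the SREBP that chiefly serves the sterol genes, lay at 8.56, 8.36, 7.90, 8.06, 9.11 and 8.16 RPKM in the APPPS1 libraries and at 8.56, 6.97, 6.05, 6.76, 7.47, 7.70 and 7.81 without Apoe. As for Insig1, replicate 1 of the APPPS1;Apoe-/- group was within the APPPS1 range and the other 6 were below it. The means were 8.36 ± 0.432 (SD, n = 6) and 7.33 ± 0.815 (SD, n = 7), a log2 change of -0.18 (SE 0.07, 95% interval -0.33 to -0.04) that was not called (limma adjusted p = 0.104). Without APPPS1;Apoe-/- replicates 2 and 5 the change was also -0.18 (interval -0.34 to -0.01, limma adjusted p = 0.201). Scap, the escort of the SREBP proteins, averaged 3.34 ± 0.333 and 2.77 ± 0.416 RPKM (log2 change -0.23, interval -0.42 to -0.05, limma adjusted p = 0.101), with 5 of 7 libraries below the APPPS1 range. Without APPPS1;Apoe-/- replicates 2 and 5 the change of Scap was -0.27 (interval -0.47 to -0.07, limma adjusted p = 0.119). Scap passed with array weights (-0.24, limma adjusted p = 0.0499). It also passed in 1 of 13 leave-one-out fits, that without APPPS1;Apoe-/- replicate 4 (limma adjusted p from 0.0372 to 0.193).

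Srebf1, whose products chiefly serve fatty acid genes, averaged 2.94 ± 0.220 and 2.56 ± 0.412 RPKM (log2 change -0.18, interval -0.35 to 0.00, limma adjusted p = 0.207), and -0.11 (interval -0.30 to 0.07) without APPPS1;Apoe-/- replicates 2 and 5. Stard4, a carrier of cholesterol between membranes, averaged 4.45 ± 0.461 and 3.89 ± 0.872 RPKM (log2 change -0.19, interval -0.44 to 0.06). Its lowest libraries were APPPS1;Apoe-/- replicates 2 and 5, at 2.70 and 2.79 RPKM, and without them the change was -0.03. Insig2, the second Insig protein, had its values on the other side: 18.7 to 22.9 RPKM (median 21.9) in APPPS1 cortex and 20.1 to 27.4 (median 23.3) without Apoe, with 4 of 7 libraries above the APPPS1 range. Its log2 change was 0.11 (interval -0.03 to 0.25, limma adjusted p = 0.317), and 0.04 without APPPS1;Apoe-/- replicates 2 and 5. Averaged over the 6 regulators on the log2(RPKM + 0.5) scale, the APPPS1 libraries lay between -0.06 and 0.05 around their own mean. The APPPS1;Apoe-/- libraries lay at 0.02, -0.28, -0.25, -0.16, -0.23, -0.09 and -0.14, so that 6 of 7 were below the lowest APPPS1 library. This average describes members chosen with results of these data known and carries no test.

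**Figure D3:**
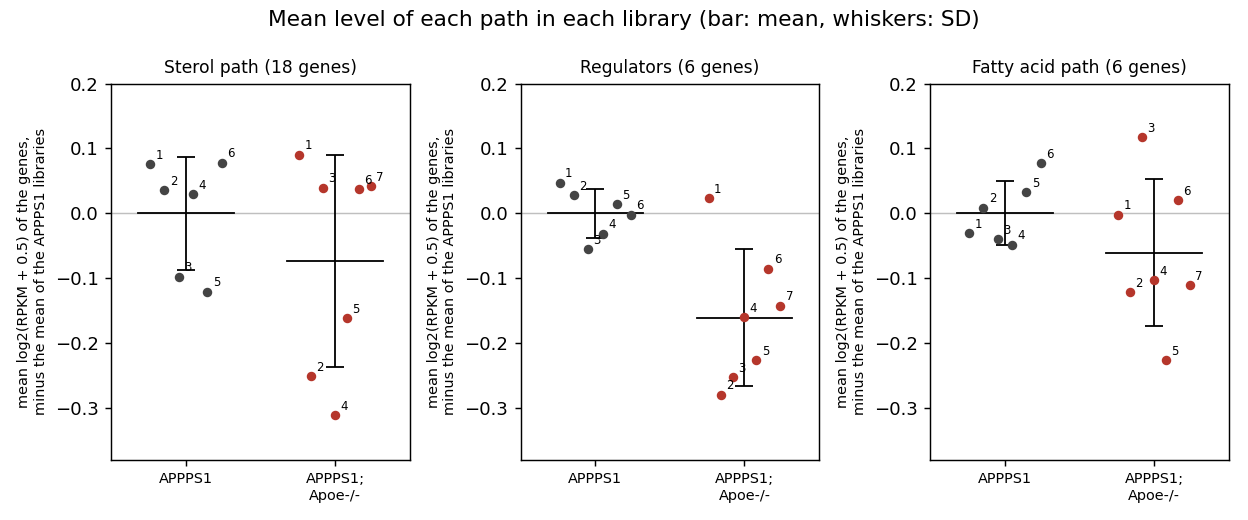
Mean log2(RPKM + 0.5) of the sterol path (18 genes), the regulators (6) and the fatty acid path (6) in each library, minus the mean of the APPPS1 libraries, with 1 point per library, numbered by replicate, and the group mean (bar) and SD (whiskers). In the sterol path APPPS1;Apoe-/- replicates 2, 4 and 5 lie at -0.25, -0.31 and -0.16 and the other 4 between 0.04 and 0.09, whereas 6 of 7 libraries are low for the regulators.

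In the sterol path 0 of 18 enzymes were called by limma, beside 8.23% of all genes tested in either direction. At an unadjusted limma p under 0.05 there were 5 of 18, beside 25.0% of all genes tested. Of the 18 changes 12 were below 0, and the median was -0.06. The first 7 steps, from acetyl-CoA to farnesyl diphosphate, had a median change of -0.07 and the 11 steps from squalene to cholesterol one of -0.03. Without APPPS1;Apoe-/- replicates 2 and 5 the 18 changes were 9 below and 9 above 0, with a median of -0.00218. In that fit 3 of 18 had an unadjusted limma p under 0.05, beside 21.3% of all genes tested. The medians of the first 7 and the last 11 steps were then -0.018 and 0.013, both nearer 0.

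Hmgcs1, which makes the HMG-CoA from which mevalonate is formed, lay at 104, 99.1, 101, 96.1, 87.3 and 109 RPKM in APPPS1 cortex and at 112, 86.0, 119, 76.0, 84.1, 109 and 99.2 without Apoe. The second group had 3 libraries below and 3 above the APPPS1 range. The means were 99.3 ± 7.22 (SD, n = 6) and 97.8 ± 16.1 (SD, n = 7), a log2 change of -0.04 (95% interval -0.24 to 0.17). Acat2, the cytosolic thiolase at the head of the path, averaged 71.6 ± 5.56 and 69.5 ± 10.4 RPKM (-0.05, interval -0.24 to 0.14). Its reads may be shared with its near-identical neighbour Acat3.

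Mvk, the mevalonate kinase, had the smallest adjusted p of the sterol path. It lay at 10.1, 11.4, 10.5, 11.03, 10.2 and 10.6 RPKM in the APPPS1 libraries and at 9.47, 8.88, 6.64, 7.01, 8.59, 10.95 and 9.35 without Apoe. Replicate 6 of the APPPS1;Apoe-/- group reached the APPPS1 range and the other 6 were below it. The means were 10.6 ± 0.481 (SD, n = 6) and 8.70 ± 1.48 (SD, n = 7), a log2 change of -0.29 (SE 0.09, 95% interval -0.48 to -0.10, limma adjusted p = 0.0602). Mvk was called in 1 of 13 leave-one-out fits, that without APPPS1;Apoe-/- replicate 6 (limma adjusted p from 0.0200 to 0.122). Without APPPS1;Apoe-/- replicates 2 and 5 the change was -0.30 (interval -0.52 to -0.08, limma adjusted p = 0.118).

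The next kinase, Pmvk, had a change of the other sign, at 34.0 ± 1.83 and 36.0 ± 2.07 RPKM (log2 change 0.08, interval -0.03 to 0.18, limma adjusted p = 0.351). Without APPPS1;Apoe-/- replicates 2 and 5 its change was 0.11 (interval 0.003 to 0.21, limma adjusted p = 0.222). Mvd, the decarboxylase that follows, averaged 9.86 ± 0.720 and 8.37 ± 1.31 RPKM (-0.24, interval -0.42 to -0.05, limma adjusted p = 0.104), with 5 of 7 libraries below the APPPS1 range, and -0.15 (interval -0.32 to 0.02) without APPPS1;Apoe-/- replicates 2 and 5. Idi1, which interconverts the 2 isoprenoid units, averaged 25.4 ± 2.16 and 24.4 ± 3.52 (-0.07, interval -0.25 to 0.12). Fdps, which joins them to farnesyl diphosphate, lay at 44.8 to 65.2 RPKM (median 55.2) in APPPS1 cortex and at 35.0 to 60.6 (median 44.8) without Apoe. Its groups overlapped in 4 of 7 libraries, and its change, the lowest of the members, was -0.31 (SE 0.12, interval -0.56 to -0.05, limma adjusted p = 0.127), and -0.18 (interval -0.43 to 0.06) without APPPS1;Apoe-/- replicates 2 and 5. Fdps was called with a sex score as covariate (-0.35, limma adjusted p = 0.0363). It was also called in 1 of 13 leave-one-out fits, that without APPPS1;Apoe-/- replicate 1 (limma adjusted p from 0.0457 to 0.249). Mvd was likewise called in 1 of 13, that without APPPS1;Apoe-/- replicate 7 (limma adjusted p from 0.0305 to 0.193). The estimates at neighbouring steps differed in size and sign, and these differences were not tested.

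Sqle, the squalene epoxidase, lay at 28.0, 24.8, 24.6, 25.8, 23.4 and 27.1 RPKM in APPPS1 cortex and at 26.7, 17.7, 22.1, 17.7, 19.0, 26.5 and 24.8 without Apoe. APPPS1;Apoe-/- replicates 2, 4 and 5 were the lowest, and 3 of the other 4 were inside the APPPS1 range. Its means were 25.6 ± 1.70 (SD, n = 6) and 22.1 ± 4.0 (SD, n = 7), a log2 change of -0.23 (95% interval -0.44 to -0.02, limma adjusted p = 0.164). It was -0.13 (interval -0.33 to 0.07) without APPPS1;Apoe-/- replicates 2 and 5. Tm7sf2, the sterol reductase acting on the ring double bond left by demethylation, averaged 8.78 ± 0.520 and 7.62 ± 0.764 RPKM (-0.20, interval -0.33 to -0.06, limma adjusted p = 0.0698), with 5 of 7 libraries below the APPPS1 range. Tm7sf2 was called in 1 of 13 leave-one-out fits, that without APPPS1;Apoe-/- replicate 7 (limma adjusted p from 0.0333 to 0.140). Without APPPS1;Apoe-/- replicates 2 and 5 the change was -0.16 (interval -0.30 to -0.01, limma adjusted p = 0.194). Its exons overlap those of Vps51 on the same strand, so its reads are uncertain.

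The remaining steps had smaller changes. Lss, which closes the rings of squalene epoxide to lanosterol, averaged 4.16 ± 0.351 and 3.79 ± 0.360 RPKM (-0.12, interval -0.26 to 0.02), and Nsdhl, of the C4 demethylation complex, 22.0 ± 1.90 and 20.4 ± 3.41 (-0.12, interval -0.32 to 0.09). For Nsdhl the change was -0.02 (interval -0.22 to 0.17) without APPPS1;Apoe-/- replicates 2 and 5. Its partners were close to 0: Msmo1, the methyl oxidase, with -0.03 (interval -0.23 to 0.16), and Hsd17b7, the keto reductase, with 0.07 (interval -0.10 to 0.24). Fdft1, the squalene synthase, had a change of 0.05 (interval -0.12 to 0.21) and Cyp51, the lanosterol demethylase, one of -0.06 (interval -0.20 to 0.07). Ebp, which shifts the ring double bond, and Sc5d, which adds another, had 0.03 (interval -0.10 to 0.15) and 0.01 (interval -0.16 to 0.18). Other gene models overlap the exons of 11 of the 30 members, among them Fdft1 (with Ctsb on the opposite strand) and Cyp51 (with Akap9). Whether reads were counted by strand is not given in the sources used here.

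Dhcr7, which makes cholesterol from 7-dehydrocholesterol, had the highest change of the members and the widest interval. It lay at 22.6, 22.8, 7.55, 21.5, 19.6 and 21.0 RPKM in the APPPS1 libraries and at 21.9, 20.0, 23.1, 15.1, 20.8, 22.2 and 22.9 without Apoe. APPPS1 replicate 3 was far below the rest, and the groups overlapped with it and without it. The log2 change was 0.19 (95% interval -0.24 to 0.61) with all libraries and -0.05 (limma adjusted p = 0.758) without APPPS1 replicate 3. That library had the most alignments, and with the alignments covariate the change was -0.28 (limma adjusted p = 0.470). It also had the highest striatal sum of its group, 812 RPKM against 331 to 436 in the other 5. The part of depth and dissection was not tested.

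The sterol enzymes were often low in the same APPPS1;Apoe-/- libraries. In 13 of 18 (72.2%) the 3 lowest of the 7 libraries were replicates 2, 4 and 5; the same 3 were lowest for 1.99% of all genes tested. Replicates 2, 4 and 5 lay below every APPPS1 library for 14, 15 and 11 of the 18 genes. For replicates 1, 3, 6 and 7 it was 1, 4, 2 and 2. The mean over the 18 genes, relative to the APPPS1 mean on the log2(RPKM + 0.5) scale, was 0.09, -0.25, 0.04, -0.31, -0.16, 0.04 and 0.04 for replicates 1 to 7. In the APPPS1 group it was 0.08, 0.04, -0.10, 0.03, -0.12 and 0.08, replicate 5 being the lowest of 6 for 13 of the 18 genes. The group means and SDs of this average were 4.56 ± 0.09 (n = 6) and 4.49 ± 0.16 (n = 7). The trio was singled out after its values were seen, so the pattern carries no test. The relative spread (SD over mean) was larger without Apoe for 17 of the 18 genes and for 28 of all 30 members, against 66.1% of all genes tested.

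Several other measures were set beside these 3 libraries. Low App and Thy1 marked replicates 2 and 5 but not 4, which had 196 and 245 RPKM. Alignments were 27336813, 30599835 and 18455493 in the 3, and between 23508967 and 34538031 in the other 4. The oligodendrocyte sum was 1380, 990 and 1566 RPKM, against 1139 to 1344, and so included both the lowest and the highest of the group. The plaque-induced microglial sum was 76.2, 213 and 94.2 RPKM, against 194 to 223, and the astrocyte sum 1404, 1481 and 1443, against 1335 to 1516. The sum of 8 endothelial markers was 75.2, 71.6 and 62.7 RPKM, against 59.1 to 62.5, so these 3 libraries were the highest of the group. In the APPPS1 group that sum was 45.8 to 62.95, the highest being replicate 5. The neuronal sum was 4059, 3370 and 4230 RPKM, against 3690 to 4073. That of oligodendrocyte precursors was 39.4, 36.7 and 42.0, against 34.9 to 37.1. By Xist and Y-linked genes replicates 1 and 3 were male and the other 5 female, as were 5 of the 6 APPPS1 libraries. The part of these measures in the pattern was not tested. Without replicates 2 and 5 the median change of the 30 members was -0.00328, with 15 changes below and 15 above 0. That of the 6 regulators was -0.14 with 0 called. Of these 6, 3 had an unadjusted limma p under 0.05 in that fit, beside 21.3% of all genes tested.

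**Figure D4:**
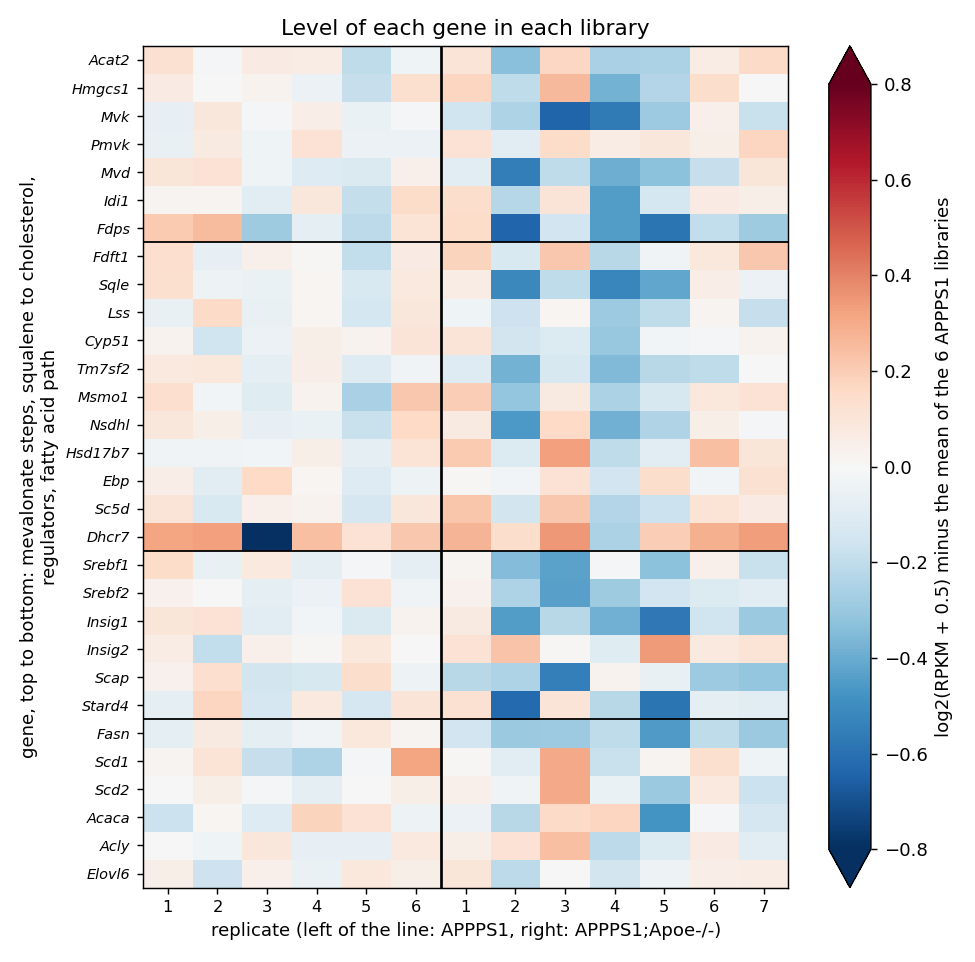
Each of the 30 genes (rows, by step of the path) in each library (columns, 6 APPPS1 then 7 APPPS1;Apoe-/-), coloured by log2(RPKM + 0.5) minus the mean of the APPPS1 libraries (blue is lower, red is higher). The columns of APPPS1;Apoe-/- replicates 2, 4 and 5 are low through most of the sterol path, Fasn is low in all 7, and APPPS1 replicate 3 is low for Dhcr7.

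Genes of the same metabolism that are not among the 30 were called in both directions. Of 71 such genes in 4 lists, 70 were tested, 3 were higher and 4 lower, beside 3.48% and 4.74% of all genes tested (median log2 change 0.01). Without APPPS1;Apoe-/- replicates 2 and 5 these counts were 0 and 2, and with the alignments covariate 0 and 0. Among 10 other genes listed with sterol and isoprenoid synthesis 1 was called, beside 8.23% of all genes tested. It was Acat1, the mitochondrial thiolase, whereas the cytosolic thiolase of the sterol path is the member Acat2. Acat1 rose from 38.4 ± 2.16 (SD, n = 6) to 44.1 ± 3.64 RPKM (SD, n = 7), a log2 change of 0.20 (limma adjusted p = 0.0445), and 0.14 without those replicates (limma adjusted p = 0.135). Among 15 genes of SREBP processing and turnover, including the site proteases and NF-Y subunits, 0 were called by limma. Of these 15, 3 had an unadjusted limma p under 0.05, beside 25.0% of all genes tested.

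Of 25 other fatty acid genes 24 were tested, 2 were higher and 1 lower, beside 3.48% and 4.74% of all genes tested. The reductase of very long chain elongation Hsd17b12 rose from 56.1 ± 3.29 to 65.0 ± 3.82 RPKM (log2 change 0.21, limma adjusted p = 0.0170), and the elongase Elovl4 from 16.5 ± 1.102 to 18.9 ± 0.972 (0.19, limma adjusted p = 0.0299). The citrate carrier Slc25a1, which exports from mitochondria the substrate of Acly, fell from 5.75 ± 0.758 to 4.68 ± 0.363 RPKM (log2 change -0.27, SE 0.08, limma adjusted p = 0.0405). These 3 did not pass without APPPS1;Apoe-/- replicates 2 and 5 (limma adjusted p = 0.0533, 0.09996 and 0.0666).

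Of 21 genes of sterol export and turnover 3 were lower and 0 higher, beside 4.74% and 3.48% of all genes tested. Ch25h, which oxidises cholesterol to 25-hydroxycholesterol, lay at 1.43 to 3.66 RPKM (median 2.58) in APPPS1 cortex and at 0.701 to 1.68 (median 0.913) without Apoe. With 6 of 7 libraries below the APPPS1 range it fell by 0.90 on the log2 scale (SE 0.19, limma adjusted p = 0.00805), a larger change than that of any of the 30 members. Npc2, which carries cholesterol out of the lysosome, lay at 38.2 to 45.8 RPKM (median 41.4) and at 26.3 to 36.4 (median 34.9), with no overlap (log2 change -0.34, limma adjusted p = 0.0103). Such a separation with APPPS1;Apoe-/- lower held for 2.17% of all genes tested. Ch25h and Npc2 were called without APPPS1;Apoe-/- replicates 2 and 5 (-0.91 and -0.25, limma adjusted p = 0.0190 and 0.0164). They were not called with the alignments covariate (limma adjusted p = 0.0670 and 0.123). Mylip, the ubiquitin ligase of lipoprotein receptors, averaged 2.96 ± 0.313 and 2.26 ± 0.366 RPKM (log2 change -0.33, limma adjusted p = 0.0286), and did not pass without those replicates (limma adjusted p = 0.103). Microglial markers were lower in the same group, as given above, and their part in these changes was not tested.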

How the data were processed

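Cortex RNA of 13 libraries was sequenced after Trizol extraction with the Clontech SMARTer kit, per the labels' protocols. The authors deposited RPKM per gene in 1 table with a count of alignments per library. Partek and mm10 are named, per the submitters' processing notes; the aligner, counting rule, strand use and annotation: not given in the sources used here. Values of this unit hide sampling error, larger where alignments are fewer.

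Values were transformed to log2(RPKM + 0.5). Genes averaging at least 0.5 RPKM over 13 libraries (13343) were fitted with limma 3.58.1 in R 4.3.3 (lmFit, eBayes with a mean-variance trend, genotype only, two-sided) and called at a Benjamini-Hochberg adjusted p under 0.05. Replicates were numbered in accession order and never paired. On simulated data with 200 changed genes among 13343 for this comparison, 91.0% of changes of 0.5 were called, 98.5% of 1 and 100% of 2, with 8 false calls. The simulated noise was independent between genes and libraries. Differences shared by many genes, such as those of depth or of single libraries, were left out, so the 8 false calls do not carry over to the real data. The 30 members had smaller changes, from -0.31 to 0.19, and how often changes under 0.5 are called was not tested. The members and lists were chosen with earlier results of these data known. Named are all members and up to 3 called genes per direction of each wider list. Positions are GENCODE mouse release M21 and promoters RefSeq GRCm38.p6. Other pseudocounts, filters, scalings, variance models, weights, covariates and left-out libraries were tried. Python 3.11.15, pandas 2.3.3, numpy 2.4.6 and matplotlib 3.10.9 handled tables and figures.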

Additional observations from a re-analysis of the deposited data

Results flagged for a closer look

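Of 80 groups of libraries examined for a library far from the others, 4 had one, where chance gives about 5% (1 in 20 groups). Dhcr7 had both: APPPS1 replicate 3 was the lowest of 6 at 7.55 RPKM (nearest 19.6, highest 22.8), and APPPS1;Apoe-/- replicate 4 was the lowest of 7 at 15.1 (nearest 20.0, highest 23.1). Insig2 in APPPS1 replicate 2 was the lowest of 6 at 18.7 RPKM, the nearest being 21.6. Hsd17b12 in APPPS1 replicate 3 was the highest of 6 at 62.4 RPKM, the nearest being 56.9.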

How the results depend on the processing

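Of 780 fits of a member under another setting, 712 kept its direction and side of the threshold, 18 lost a call, 7 gained one and 43 changed sign. The sign changes fell on 10 members with changes of at most 0.19, called in 0 of those fits. The members called lower were 1 without a filter, 1 without a variance trend, 0 with the alignments covariate, 1 without APPPS1;Apoe-/- replicates 2 and 5, and 0 with both. The number of all genes called was 1098, and 202, 677 and 281 under the last 3 settings. The 3 higher and 4 lower genes of the wider lists became 0 and 0, 0 and 2, and 0 and 0 there; quantile normalization left 2 lower. Leaving out 1 library gave 1 to 3 members lower, 0 to 0 higher, 711 to 1594 genes called, and 1 to 5 higher and 2 to 5 lower wider genes.

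With the alignments covariate the changed signs were Acat2 0.0208, Hmgcs1 0.0312, Dhcr7 -0.277 and Scd2 0.0751. Without replicates 2 and 5 they were Acat2 0.0445, Hmgcs1 0.0383, Msmo1 0.0432, Scd2 0.0399, Acaca 0.0265 and Elovl6 0.0112. With both they were Acat2 0.0777, Hmgcs1 0.0652, Msmo1 0.00270, Dhcr7 -0.278, Scd2 0.0795, Elovl6 0.00572 and App 0.0127. Quantile normalization gave Sc5d -0.0152 and Acly -0.0128, the sex score Sc5d -0.00759 and Acly -0.00376, and array weights Hmgcs1 0.000541. With 1 library left out, Hmgcs1 ran from -0.0839 to 0.0226, Msmo1 from -0.0830 to 0.0146, Sc5d from -0.0264 to 0.0499, Dhcr7 from -0.0533 to 0.262, Scd1 from -0.0259 to 0.0866, Scd2 from -0.0718 to 0.0282, Acly from -0.0296 to 0.0458 and Elovl6 from -0.0605 to 0.00229. The cause was not tested. No paired analysis was possible because the labels give no replicate numbers. RPKM states no depth per gene, so no counting interval is given.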
